A study of Mus musculus with 4 samples.

Results

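Peaks of N6-methyladenosine (m6A), adenosine that carries a methyl group on its base, were examined over 8 long non-coding RNA genes of mouse brain: Malat1, Neat1, Meg3, Rian, Mirg, Miat, Snhg11 and Peg13. The genes were given by name, and a peak was assigned to a gene when it touched an exon of any of its transcripts in GENCODE release M21 (mm10). They are 8 of 55450 annotated genes and 8 of 14554 genes with an exonic peak in at least 1 list. Over them lay 32 of the 38533 peaks of replicate 1 and 36 of the 30134 peaks of replicate 2.

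In the m6A-seq experiment, mRNA was selected from RNA of whole brain, fragmented and pulled down with an antibody against m6A, and the bound RNA was sequenced next to RNA that had not met the antibody (input). The mice were 4 weeks old. They are labelled C57BL/6J on the samples and as Prrc2a flox/flox in the design text of the series, with no Cre and no treatment named. The series has 2 m6A IP samples and 2 input samples, and peaks were called for each IP replicate against its own input. With a single group, only the replicates could be compared, which the methods call biological without giving the number of animals behind each.

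m6A is placed on nuclear RNA by the Mettl3 and Mettl14 methyltransferase complex, mostly at adenosines in the DRACH sequence (in which D stands for any base but C, R for a purine and H for any base but G), of which GGACT is a preferred form. Malat1 is a nuclear RNA of splicing speckles, and Neat1 is the scaffold of paraspeckles. Meg3, Rian and Mirg are expressed from the maternal allele of the imprinted Dlk1-Dio3 domain, where Rian hosts snoRNAs and Mirg hosts miRNAs. Miat (Gomafu) is a nuclear RNA of neurons that binds splicing factors, Snhg11 hosts snoRNAs and is abundant in neurons, and Peg13 is expressed from the paternal allele in brain.

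The gene type in the annotation did not call all 8 genes alike. Malat1, Neat1, Meg3, Mirg and Miat are lincRNA (intergenic), Rian is a processed_transcript, Peg13 is annotated as sense_intronic within Trappc9, and Snhg11 is annotated as protein_coding. A value of fold enrichment below is a linear ratio of IP over input for 1 peak. The lists hold no read counts, coverage, p-value or strand, so the depth behind a peak is unknown, and a stretch without a peak cannot be told apart from a stretch without reads.

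The sequences below were read from GRCm38.p6, which has the chromosome sequences of mm10, on the strand of the gene. They are shown because each lies in a shared interval, that is, the stretch over which peaks of both replicates overlapped, and they cover the strongest such interval of every gene and the 5′ block of Malat1. Capitals mark the motif match, and the match is a description of the letters, not a mapped m6A site. The first set holds GGACT.
Malat1, chr19:5801271-5801299, minus strand: tgaagctaggaaGGACTgaggagccagca
Neat1, chr19:5845116-5845144, minus strand: atggagacgggtGGACTgggggcccttga
Neat1, chr19:5843675-5843703, minus strand: gggacgtcttctGGACTaaaagggatccg
Meg3, chr12:109561418-109561446, plus strand: gagtggcccatgGGACTtctgctcatctt
Meg3, chr12:109563986-109564014, plus strand: agaagaatgctgGGACTacatgtgggcta
Rian, chr12:109660824-109660852, plus strand: cgagacacaagaGGACTgctgagctcaca
Mirg, chr12:109749188-109749216, plus strand: gcccacctgagaGGACTgtccacacccca
Miat, chr5:112219947-112219975, minus strand: ttcatcccatgtGGACTggaatcctccag
Snhg11, chr2:158385304-158385332, plus strand: catttcagacaaGGACTgcatcccagaga
Peg13, chr15:72809413-72809441, minus strand: cacgcttggctgGGACTtgggcgtatgcc

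The next 3 sequences come from strong shared intervals that hold no GGACT. The second interval of Malat1 and the interval at the 3′ end of Meg3 hold GGAC, and the interval at the 5′ end of Malat1 holds neither, so its DRACH match nearest to the midpoint is shown.
Malat1, chr19:5801999-5802026, minus strand: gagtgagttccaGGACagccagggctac
Meg3, chr12:109571440-109571467, plus strand: acccaagactctGGACcctggcctcccc
Malat1, chr19:5802594-5802622, minus strand: tcgtgaggcaggAGACTcagcccgaggaa

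All 8 genes had at least 1 peak found in both replicates, beside 76.2% of all genes and 54.9% of long non-coding genes with an exonic peak. Of the 32 replicate 1 peaks 28 were shared, which is 87.5% (95% Wilson interval 71.9 to 95.0), beside 60.0% over the whole list. Of the 36 replicate 2 peaks 25 were shared, which is 69.4% (53.1 to 82.0), beside 77.0% over the whole list. The share was above that of the whole list in replicate 1 and below it in replicate 2. The genes were chosen with earlier results of these data known, so the intervals are no test against the lists. Peaks of these genes were also longer, with medians of 412.5 nt against 349 nt in replicate 1 and 353.5 nt against 343 nt in replicate 2. The shares were not corrected for length. The pairs gave 28 shared intervals, because a wide peak in 1 list could meet several peaks of the other. The Wilson intervals cover counting error only, and peaks of 1 transcript are not independent.

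The genes differed widely in number of peaks. Meg3 had the most, with 11 peaks in replicate 1 and 14 in replicate 2, followed by Miat with 7 and 8. Malat1 had 3 in each replicate, Snhg11 3 and 4, Neat1 2 and 3, and Peg13 2 in each. Rian and Mirg each had 2 exonic peaks in replicate 1 and 1 in replicate 2. Meg3 and Miat led in both lists, and no gene was without a peak in either.

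**Figure D1:**
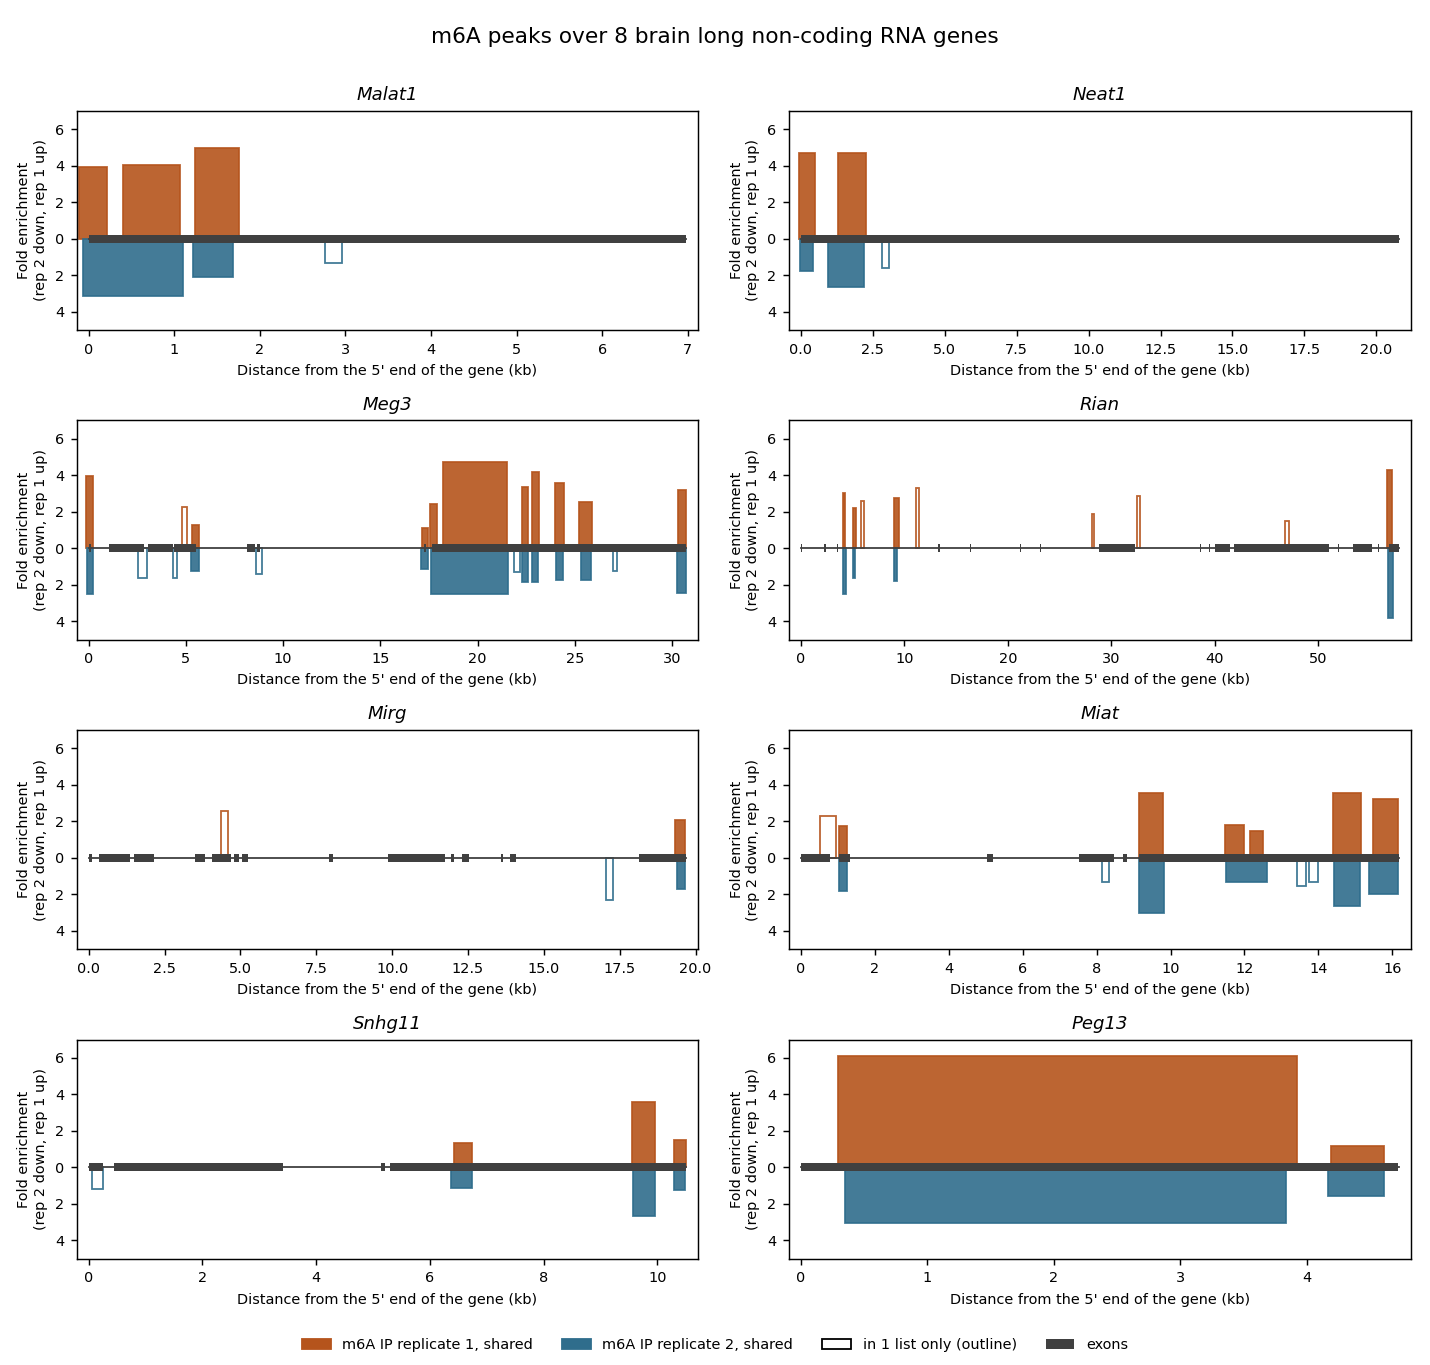
Peaks over the 8 genes, by distance from the 5′ end of the gene (kb, introns included). Bar height is the fold enrichment of IP over input, with replicate 1 upwards and replicate 2 downwards, filled bars are shared peaks, outlined bars are peaks of 1 list only, and dark boxes are exons. Shared peaks of Malat1 and Neat1 sit at the 5′ end, and a single block covers most of Peg13. The shared peak of Rian with the highest fold enrichment sits near the 3′ end.

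The fold enrichment of the peaks ranged from 1.09 to 6.09 in replicate 1 (median 3.20) and from 1.11 to 3.84 in replicate 2 (median 1.72). The whole lists had medians of 2.88 and 2.20, so that the median of these genes was above that of the first list and below that of the second. In numbers, 17 of 32 were above the list median in replicate 1, where nearly as many lay below it, and 10 of 36 in replicate 2. The typical peak stood at percentile 58.6 of the first list and 22.9 of the second. What set the lists apart was not tested.

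Peaks that were each other's best partner allowed a comparison within the same stretch of RNA. There were 25 such pairs, and 22 of them (88%) were higher in replicate 1, beside 77.9% of all pairs. The median ratio of replicate 1 over replicate 2 was 1.34 over these pairs and 1.29 over all pairs, with a range of 0.745 to 2.67 in the 8 genes. Both values show the general offset between the lists, and the share is near its background. Spearman's rho of fold enrichment was 0.766 over the 25 pairs and 0.634 over all pairs, given as a description because the pairs share 2 libraries and few transcripts.

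**Figure D2:**
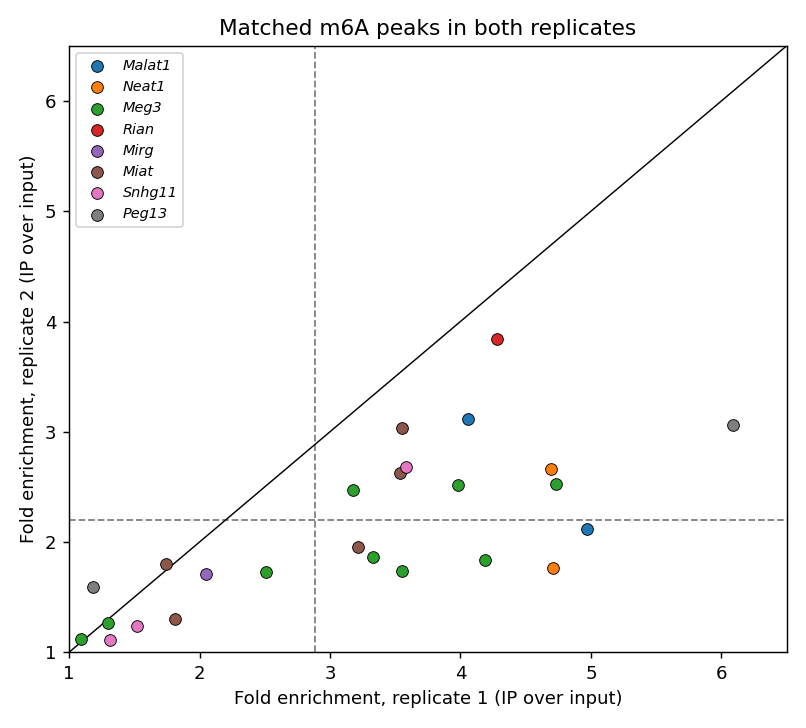
Fold enrichment (IP over input) of the 25 matched peak pairs of the 8 genes in replicate 1 and replicate 2, coloured by gene. The solid line marks equal values and dashed lines the medians of the whole lists (2.88 and 2.20), and 22 of the 25 points lie below the solid line.

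Ranking the genes by their highest matched value gave a different order in each replicate. In replicate 1 Peg13 led with 6.09, followed by Malat1 (4.97), Meg3 (4.74), Neat1 (4.71), Rian (4.28), Snhg11 (3.58), Miat (3.55) and Mirg (2.05). In replicate 2 Rian led with 3.84, followed by Malat1 (3.11), Peg13 (3.06), Miat (3.04), Snhg11 (2.68), Neat1 (2.67), Meg3 (2.52) and Mirg (1.71). Malat1 was second and Mirg last in both, while Rian moved from the fifth to the first place and Meg3 from the third to the seventh. The highest values of a gene could come from different stretches in the 2 replicates. In Malat1 the peak of 4.97 was matched with 2.12, and in Neat1 that of 4.71 was matched with 1.77. Fold enrichment reached 2 in both lists in 11 pairs, which belonged to all genes but Mirg.

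Malat1 is a single exon of 6983 nt in its longest transcript (chr19:5795690-5802672, minus strand). In replicate 1 its 3 peaks had fold enrichments of 3.94, 4.06 and 4.97 from the 5′ end onwards. In replicate 2 a peak of 1179 nt with a value of 3.11 spanned both upstream positions, and the next had a value of 2.12. All shared bases lay in the first 1688 nt, which put 18.99% of the exon bases in shared intervals.

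Past these positions Malat1 had only 1 further peak, in replicate 2, of 200 nt and a fold enrichment of 1.34 at percentile 4.17 of its list. The last 4017 nt of the transcript, 57.5% of its length, had no peak in either list. This stretch is not free of the motif, since the last of the 7 GGACT matches of Malat1 outside shared intervals lies at nucleotide 5952. The 2 GGACT matches within shared intervals are both in the downstream one, at nucleotides 1248 and 1388, the latter printed above. The second shared interval also touches Gm37376, a gene annotated on the opposite strand, and the library kit does not mark strand, so that reads from both cannot be told apart.

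Neat1 gave a similar picture on a longer RNA (20771 nt, chr19:5824708-5845478, minus strand). Its 2 replicate 1 peaks had nearly equal fold enrichments of 4.71 at the 5′ end and 4.70 further in. In replicate 2 the same positions had 1.77 and 2.67, the former giving the highest ratio between replicates of any pair (2.67). The 5′ pair thus ranked at percentile 86.6 of the first list and 25.7 of the second.

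The shared intervals of Neat1 ended at nucleotide 2210 and a replicate 2 peak of fold enrichment 1.62 ended at nucleotide 3064, after which 17707 nt (85.2% of the transcript) had no peak. GENCODE also holds a short Neat1 transcript of 3004 nt whose 3′ end lies at 5842307, and every Neat1 peak touches it. The short form of Neat1 is polyadenylated, whereas the long form ends in a structure without a poly(A) tail, and the RNA was selected by poly(A). Whether the downstream stretch lacked m6A or lacked reads cannot be told apart with peak lists. GGACT occurred 19 times in the transcript outside the shared intervals and 4 times inside.

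In 3 of the genes a shared peak reached past the annotated 5′ end. The peaks began 114 nt and 70 nt upstream of the Malat1 start in replicates 1 and 2. The corresponding distances were 78 nt and 29 nt for Neat1 and 121 nt and 101 nt for Meg3. Each of these peaks thus crossed the annotated start in both replicates, and it reached further upstream in replicate 1.

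**Figure D3:**
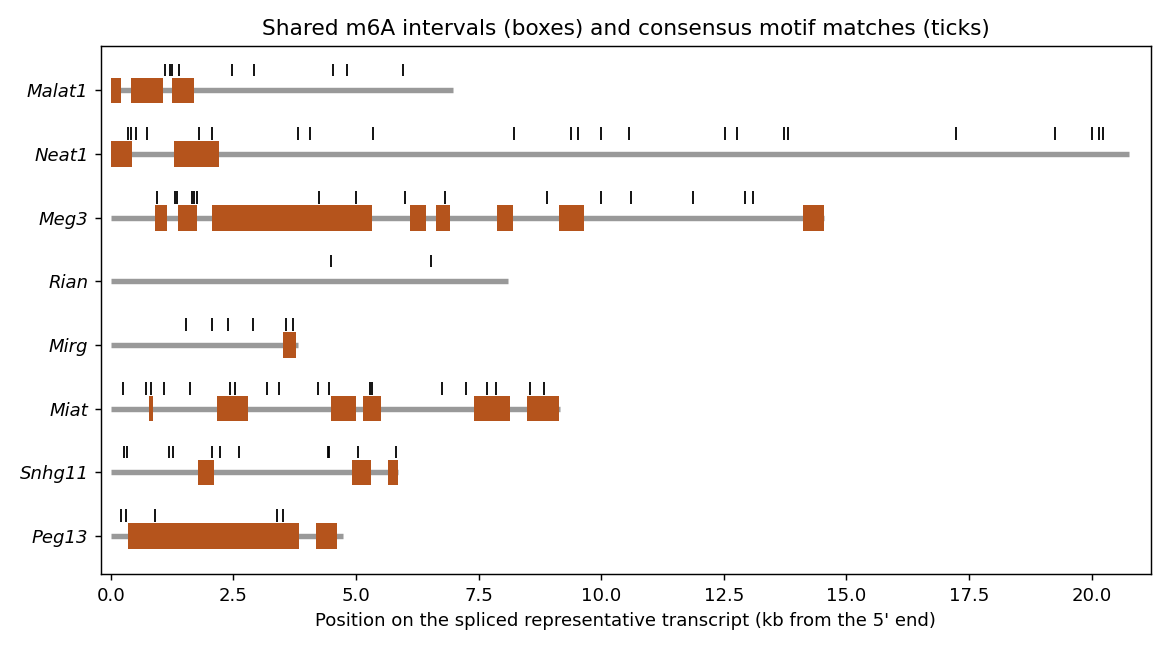
Shared intervals (boxes) on the longest spliced transcript of each gene, by position from the 5′ end (kb), with ticks at each GGACT match. Boxes stop within the first 1688 nt of Malat1 and the first 2210 nt of Neat1 although ticks go on. The shared interval of Rian and the most upstream one of Meg3 are missing because they lie on other transcripts.

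Meg3 (chr12:109541001-109571726, plus strand) had 10 shared intervals, which tied with C230004F18Rik for the most among 905 long non-coding genes with at least 1. Such genes had a median of 1 shared interval, but Meg3 has 18089 exon bases. Per length it had 0.553 shared intervals per kb of exon, below the median of 0.678 per kb over the same long non-coding genes and above that of 0.421 per kb over all genes with a shared interval. Among all 11093 genes with a shared interval, 42 had more than Meg3. Shared intervals covered 32.5% of its exon bases, above the median of 15.9% over those long non-coding genes.

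Of the intervals of Meg3, 7 lay in the long last exon of its longest transcript. The widest was a block of 3273 nt in replicate 1 with a fold enrichment of 4.74, which fell within a replicate 2 peak of 3957 nt with a fold enrichment of 2.52. They ranked 16th and 8th by length in their lists. The same replicate 2 peak also met a replicate 1 peak of 2.42 upstream of the block. The 10 shared intervals thus rest on 9 shared peaks of replicate 2. Downstream of the block followed 4 narrower pairs with values of 3.33 and 1.87, 4.19 and 1.84, 3.55 and 1.74, and 2.51 and 1.73 in replicates 1 and 2. The fold enrichment of these 4 pairs was higher in replicate 1 each time, by a ratio between 1.45 and 2.28. Their intervals are exonic in the longest transcript only, among 11 annotated for Meg3.

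The ends of Meg3 also carried shared peaks. The interval over the first exon of shorter transcripts (chr12:109540900-109541219) had values of 3.98 and 2.52, and only 99 of its bases were exonic. It does not touch the longest transcript. The interval at the 3′ end (chr12:109571285-109571715) had 3.18 and 2.47 and holds 5 GGAC matches but no GGACT. It overlaps Gm26906 on the opposite strand. A pair over a short internal exon stood at the bottom of both lists, with 1.09 and 1.12, at percentiles 0.017 and 0.13. Of the 316 bases of its interval 84 were exonic. Another pair upstream was also low, with 1.30 and 1.26, at percentiles 1.16 and 1.86.

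Other Meg3 peaks were found in 1 list only. The single one of replicate 1 had a fold enrichment of 2.28, and the 5 of replicate 2 had 1.27 to 1.65. All of these values were below the median of their list.

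Rian (chr12:109603940-109661716, plus strand) stood apart by a single strong exonic interval near the 3′ end of the gene. The interval lay at chr12:109660667-109661080, and its fold enrichment was 4.28 in replicate 1 against 3.84 in replicate 2, at percentiles 81.2 and 93.9. This was the highest replicate 2 value among the 8 genes, and the ratio of the replicates was 1.11. The exon is the last of an 11-exon transcript and of an 8-exon transcript, and it is not part of the longest one, on which no shared interval could be placed. The interval holds 1 GGACT and 19 DRACH matches in 414 nt. Of these bases 335 are exonic, since the interval begins in the intron upstream. In the 11-exon transcript the last exon runs on past the interval to 109661716.

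The rest of Rian was sparse, with 1.84% of 18234 exon bases in the shared interval. The other exonic peak occurred in replicate 1 only, with a fold enrichment of 1.50. Introns of Rian held more peaks than its exons, 7 in replicate 1 and 3 in replicate 2. The introns also take up more of the gene than the exons, and these counts are not scaled to length. Of the intronic peaks 3 in each replicate were shared. The values of these pairs were 3.01 and 2.52, 2.23 and 1.61, and 2.75 and 1.77 in replicates 1 and 2. No peak in a Rian intron held GGACT.

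Mirg (chr12:109729764-109749460, plus strand) had 1 shared interval, in its last exon (chr12:109749147-109749402). The values were 2.05 and 1.71, at percentiles 22.1 and 22.3 of their lists. These were the lowest leading values of any of the 8 genes, though the interval holds 2 GGACT matches in 256 nt.

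The second Mirg peak occurred in replicate 1 only, with a fold enrichment of 2.55, the highest of the exonic peaks of the 8 genes found in 1 list only. It spans chr12:109734129-109734366 and includes the whole Mir134 hairpin (chr12:109734139-109734209). The mature miRNA of its 5′ arm, from RefSeq, is shown with bases 2 to 8, the seed, in capitals.
mmu-miR-134-5p: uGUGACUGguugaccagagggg
Mir134 was the only one of the 14 miRNA genes within Mirg that an exonic peak touched. A further replicate 2 peak of Mirg lay in an intron, with a value of 2.29, and was not shared.

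Miat (chr5:112213228-112229395, minus strand) had 6 shared intervals over 33.4% of its exon bases, close to the coverage of Meg3. The strongest were in the last exon. In the first of these, at 27.0% of the transcript length, the values were 3.55 and 3.04, and in the next, near the 3′ end, they were 3.54 and 2.63. The interval at the 3′ end itself had 3.21 and 1.96. Between them lay weak intervals, where replicate 1 had 1.81 and 1.47 and a single replicate 2 peak of 1119 nt had 1.30. Upstream of the last exon a pair of 200 nt in both lists had 1.74 and 1.80.

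The weak part of Miat is where its known repeat lies. The letters ACTAAC, the core of the UACUAAC repeat that Miat is known for, occur 11 times in the longest transcript, searched on its own strand only, between nucleotides 4942 and 6852. Peaks of replicate 1 cover 1 of these matches and peaks of replicate 2 cover 10. The replicate 2 peaks over them had values of 1.30 for the wide one and of 1.52 and 1.30 for those not shared, which are among the lowest of the gene. Among the 28 shared intervals of the 8 genes 1 holds these letters, beside 3.89% of 21264 shared intervals of other genes.

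Among the 6 shared intervals of Miat 4 touch exons of Gm26953 on the opposite strand. Both downstream intervals do not, and they include values of 3.54 and 2.63. The single-list peaks of Miat were 1 in replicate 1, with a value of 2.27, and 3 in replicate 2, with values from 1.30 to 1.52.

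Snhg11 (chr2:158375638-158386145, plus strand) had 3 shared intervals, all in the last exon of its longest transcript (5864 nt). The middle one, at 87.3% of the transcript length, had fold enrichments of 3.58 and 2.68. The flanking ones had 1.32 and 1.11 upstream, and 1.52 and 1.23 at the 3′ end. The middle pair stood above the medians of both lists and the flanking pairs were at percentiles 0.111 to 5.11. Each interval holds 1 GGACT. A peak of 1.16 in the first exon was found in replicate 2 only.

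Peg13 (chr15:72805600-72810324, minus strand) is a single exon of 4725 nt that was mostly covered by 1 peak. The peak was 3632 nt long in replicate 1 with a fold enrichment of 6.09 and 3488 nt long in replicate 2 with a fold enrichment of 3.06, at ranks 9 and 10 by length. A second, short pair near the 3′ end had 1.18 and 1.59, the only pair of the gene with a higher replicate 2 value. Shared intervals covered 82.7% of the exon bases. Among 11093 genes with a shared interval 120 had a higher coverage, and among 905 long non-coding genes 10 did.

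The wide block of Peg13 is poor in the preferred motif. It holds 3 GGACT matches in 3488 nt, so that the density within the shared intervals of Peg13 was 0.768 per kb. The other exon bases had 2.44 per kb, which rests on 2 matches, at nucleotides 213 and 306. The latter lies within the replicate 1 peak, which starts at nucleotide 293. It counts as outside because the replicate 2 peak starts at nucleotide 351. DRACH occurred 51 times in the block. The gene lies within an intron of Trappc9, which is transcribed from the same strand, so that reads of Peg13 and of unspliced Trappc9 RNA cannot be told apart.

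**Figure D4:**
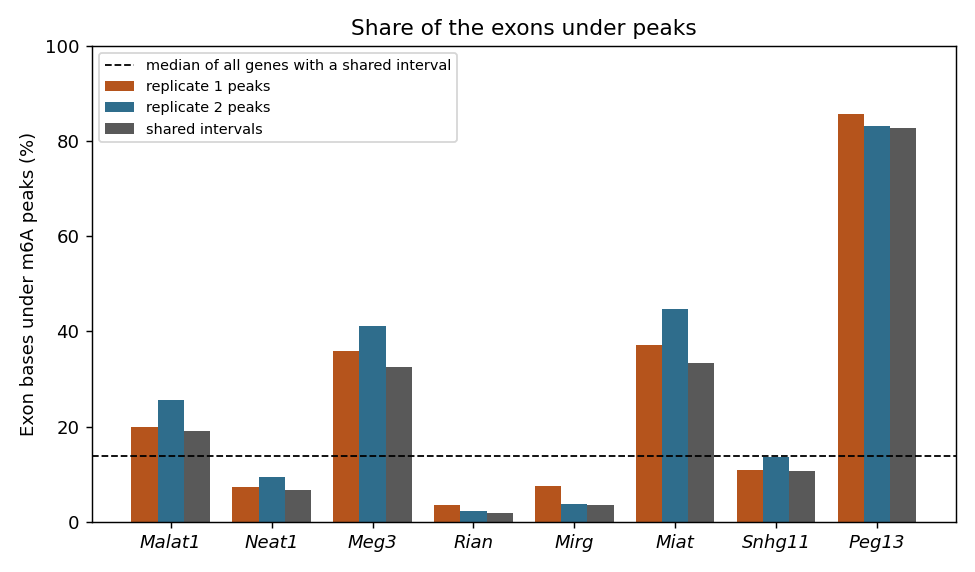
Share of exon bases (%) under replicate 1 peaks, replicate 2 peaks and shared intervals in each of the 8 genes. The dashed line is the median shared coverage of all genes with a shared interval (13.7%), and shared coverage runs from 1.84% in Rian to 82.7% in Peg13.

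The genes differed more in coverage by peaks than the replicates of most genes did. The shares in replicates 1 and 2 were 85.7% and 83.2% for Peg13, 36.0% and 41.1% for Meg3, 37.1% and 44.8% for Miat, and 19.9% and 25.5% for Malat1. They were 10.9% and 13.5% for Snhg11, 7.21% and 9.37% for Neat1, 7.49% and 3.65% for Mirg, and 3.55% and 2.34% for Rian. The replicates were thus furthest apart, relative to the level, in Mirg and Rian, which had 1 peak fewer in replicate 2. Peg13, Miat, Meg3 and Malat1 lay above the median of all genes with a shared interval, and Snhg11, Neat1, Mirg and Rian lay below it.

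The position along the transcript could be given for 25 of the 28 shared intervals. The median position of the midpoints was 44.3% of the transcript length. By equal parts of the length 11 midpoints fell in the first, 7 in the middle and 7 in the last. Every midpoint of Malat1 and Neat1 was in the first part, that of Mirg was in the last, and Meg3, Miat, Snhg11 and Peg13 had midpoints in several.

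Of the 28 shared intervals 18 hold GGACT and 26 hold GGAC on the strand of the gene. The share with GGACT was 64.3% (95% Wilson interval 45.8 to 79.3), beside 42.4% of 21264 shared intervals of other genes and 42.9% of 406 of other long non-coding genes. The intervals were longer in the 8 genes, with a median of 397.5 nt against 336 nt in the other genes, and a longer interval holds more matches of any motif. Per length the densities were nearer, with 1.79 GGACT per kb in the 8 genes, 1.53 in all other genes and 1.96 in other long non-coding genes.

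Within the exons of the 8 genes, shared intervals took 18.2% of the bases and 28.2% of the GGACT matches (31 of 110). The density was 1.82 per kb in the intervals and 1.03 per kb outside. For the general DRACH motif, which contains all GGACT matches, the densities were 20.1 and 19.2 per kb. The density of GGACT was higher inside than outside in all genes but Meg3 and Peg13, which hold the widest blocks. The density inside rests on few matches in several genes, with 1 in Rian, 2 each in Malat1 and Mirg, and 3 in Snhg11. In Malat1 it was 1.51 per kb inside and 1.24 outside, while GGAC had 2.26 and 2.30.

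To place the 8 genes among their kind, 53 further named long non-coding genes were looked up (of 62 listed). A peak in at least 1 list was found over 29 of them. Of these 29 genes 20 had a shared interval, beside 54.9% of the 1649 long non-coding genes with an exonic peak. A shared interval was found in 8 of 12 genes tied to neural development (9 with a peak) and 4 of 9 widely expressed genes (5 with a peak). It was found in 2 of 5 imprinted genes and 2 of 5 genes of the X chromosome (3 with a peak in each class). Among 22 hosts of snoRNAs or other small RNAs, 9 had a peak and 4 had a shared interval. The classes were not tested against each other. Tug1 had the most, with 5 shared intervals and fold enrichments of 4.78 and 3.08 at the strongest. Sox1ot (4.85 and 4.74) and Mir22hg (4.32 and 2.89) had 3 each. Dlx6os1, Lhx1os, Airn, Tunar and Mir124a-1hg had 2 each. None of these 53 genes reached the numbers of Meg3 or Miat. Among all 905 long non-coding genes with a shared interval, however, 4 had more than Miat, Meg3 included. Per length Miat had 0.646 shared intervals per kb of exon, below the median of 0.678 per kb over those genes.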

How the data were processed

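m6A peak lists of 2 IP samples of mouse whole brain were used. According to the methods, the authors trimmed reads with Cutadapt and Trimmomatic and aligned them to mm10 with TopHat (TopHat2 2.0.9 per the labels). Peaks were called with MACS2 in each IP replicate against its input, with duplicates kept and without pooling. Each deposited peak has a position and a fold enrichment, the ratio of IP to input on a linear scale. Keeping duplicates can raise this ratio where molecules are few. No counts are given, so depth is unknown, and the input samples enter through the ratio only.

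Both ends of a peak were counted. Peaks and exons of GENCODE M21 were joined by at least 1 bp with Python 3.11.15 and pandas 2.3.3, and the overlaps were tested on simulated data and checked against bedtools 2.31.1. Peaks overlapping by at least 1 bp between replicates were called shared. The representative transcript was the longest spliced one, and 8 of 8 were identical to the GENCODE sequence. Shares carry 95% Wilson intervals. Named genes were the 8 members, the 8 listed genes with the most shared intervals, and for peaks of 1 list the strongest of each gene. Members, lists and measures were chosen with earlier results of these data known. No test between groups was possible.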

Additional observations from a re-analysis of the deposited data

How the results depend on the processing

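No paired analysis was possible because the 2 IP replicates form a single group and no test was fitted. Of 60 values recomputed for 11 results, 45 stayed within the limits set for them. The limit was a fixed factor for counts, the Wilson interval for shares, and otherwise the standard deviation between the replicates. For the median fold enrichment this standard deviation was 1.05, a wide limit. Mirg lost its shared peak when only peaks of 2-fold or more were used, and Rian with exons of the representative transcript only. In each case 7 genes were left, and all 8 genes kept a shared peak under the other rules. With midpoints within 100 bp, 65.6% of the replicate 1 peaks were shared, in place of 87.5%. The shares of the whole lists were not recomputed under this or the other changed rules, so the changed shares have no background beside them. When only peaks of 2-fold or more were used, 56.5% of the replicate 1 peaks and 100% of the 11 remaining replicate 2 peaks were shared, 13 shared intervals remained on 12.7% of the exon bases, and their median position was 25.4%. The filter removes peaks, mostly in replicate 2, where values are lower. With the representative transcripts only, 22.3% of their exon bases were shared, and along the union of all exons the median position was 53.2%. The motif share became 92.9% for GGAC and 100% for DRACH, and 25% for GGACT in windows of 100 nt around the midpoint, so that it depends on interval width. With 1 replicate alone, 20.2% to 22.5% of exon bases were under peaks, the median position was 42.1% to 44.6%, GGACT was present in 55.6% to 62.5% of peaks, and 32 to 36 peaks lay over all 8 genes. A gene with a shared peak has a peak in each list, so that these 8 genes were fixed in advance. The 45 values include them. Leaving out peaks that touch exons of another gene, an alternative chosen after seeing the data, left 21 shared intervals over all 8 genes but 2 in place of 6 for Miat. Depth, coverage and strand are not in the lists, so weak peaks and peak-free stretches could not be judged further.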

Other observations

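Peaks also lay between the genes of the Dlk1-Dio3 domain, over 208 kb from Meg3 to Mirg (chr12:109541001-109749460). Between Meg3 and Rian, replicate 1 had 5 peaks and replicate 2 had 3. A single pair was shared (chr12:109576445-109576744 in replicate 2), with fold enrichments of 2.22 and 1.76 and no annotated exon. A replicate 1 peak touched an exon of Rtl1, an imprinted gene, with a value of 2.43, and was not shared. No peak lay between Rian and Mirg in either list.

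Kcnq1ot1, an imprinted antisense RNA, had 12 exonic peaks in replicate 1 and 0 in replicate 2, and Sox2ot had 4 and 0. Over the whole replicate 1 list 60.0% of the peaks overlapped a replicate 2 peak. The counts are not scaled to length, and Kcnq1ot1 has 93092 exon bases and Sox2ot 11594. Both genes were picked out after their values were seen. Read coverage is not in the lists, and the difference was not tested.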
